A study of Mus musculus with 10 samples.

Results

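The cholesterol genes described here are the 28 enzymes, regulators and carriers of cholesterol synthesis and uptake named in one list, out of 23420 gene rows in the deposited counts. Their rows were found by symbol, with Msmo1 listed under its older name Sc4mol, and all 28 passed the filter on low counts. They divide by role into 6 enzymes of the mevalonate arm and 11 enzymes that turn farnesyl diphosphate into cholesterol. The others are 5 genes of SREBP control, 2 genes of acetyl-CoA supply and 4 genes of sterol transport and storage. SREBP control comprises Srebf1 and Srebf2, which encode the SREBP transcription factors, and their regulators Scap, Insig1 and Insig2.

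Cells build cholesterol from acetyl-CoA through mevalonate, isoprenoid diphosphates, squalene and lanosterol. When sterols run low, the escort protein SCAP carries SREBP precursors from the endoplasmic reticulum to the Golgi, where proteases release the active factor, and INSIG proteins hold SCAP back when sterols are plentiful. In the testis cholesterol is the substrate of steroid hormones in Leydig cells and a membrane component of germ cells and Sertoli cells, and sterol intermediates made by the lanosterol demethylase CYP51 have been named meiosis-activating sterols.

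The counts come from polyA RNA of spermatogenic cells from mice of mixed background at postnatal day 18, 5 libraries labelled Ino80WT and 5 labelled Ino80cKO. Ino80cKO mice carry a deletion of Ino80, an ATP-dependent chromatin remodeller, made in the testis with Stra8-Cre, a driver that is active in male germ cells. The labels give no Cre or allele status for Ino80WT, no sort, no account of which part of Ino80 was deleted, and no link from a library to an animal. The p-values therefore rest on library-to-library spread, part of which could be technical. Cells came from enzyme-digested tubules passed through a filter, and libraries were made with a stranded kit.

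Gene counts per library ran from 16750609 to 23700094. Hence 3 counts, the most that a count of 0 allows, equal a level (CPM, a gene's share of a library's counts) of 0.127 to 0.179. This is a limit for counting error only, and it uses raw library totals, without the scaling factors applied to the levels below. Ino80 itself was at 94.96 ± 12.6 CPM in Ino80WT and 96.1 ± 1.37 CPM in Ino80cKO (SD, n = 5 each; edgeR adjusted p = 0.889), and since reads outside the deleted part still count, this checks neither the labels nor the deletion. Markers of several cell types were present. Over all genes tested 18.3% were called higher in Ino80cKO and 27.6% lower, the background for the marker counts that follow. The summed level of 16 pachytene and later spermatocyte markers was 4630 to 8251 CPM across Ino80WT libraries against 1643 to 2876 CPM across Ino80cKO libraries, and all 16 were called lower. The sum of 14 Sertoli markers was 3196 to 5018 CPM against 4772 to 6336 CPM. Clu alone made up much of it, with means of 2162 and 2848 CPM beside 4067 and 5250 CPM for the sum. Of the 14 markers 7 were called higher and none lower. That count was 3 without Ino80WT 5, 4 without Ino80cKO 2 and 3 without both Ino80WT 3 and Ino80cKO 3. It was 10 under library totals, without Ino80cKO 5 and without both Ino80WT 1 and 2. The sum of 10 Leydig markers ran from 134 to 214 CPM against 183 to 291 CPM (5 of 9 tested called higher, 1 lower, and 3 higher without Ino80WT 3). Nr5a1 made up much of it, with means of 86.2 and 116.7 CPM beside 186.6 and 244.6 CPM for the sum. Besides Nr5a1, those called higher were Lhcgr (2.16-fold), Star (1.98-fold), Hsd3b6 (1.91-fold) and Hsd3b1 (1.45-fold). Fdx1 was the marker called lower, and Cyp11a1, Cyp17a1 and Hsd17b3 were not called. None of the Sertoli or Leydig markers was at 0 in all libraries, although Insl3 had only 18 counts over the Ino80WT and 31 over the Ino80cKO libraries. The sum of 10 macrophage and leukocyte markers was 25.2 to 43.1 CPM against 55.9 to 105.8 CPM, a 2.15-fold higher mean with the groups apart. Much of the rise, from a mean of 35.1 to 75.5 CPM, lay in Cd74 (6.55 to 24.1 CPM) and H2-Aa (2.68 to 10.1 CPM). Of the 10 markers 6 were called higher. The count was 4 without Ino80WT 2, Ino80WT 5, Ino80cKO 1 or Ino80cKO 4, and 7 without Ino80cKO 3 or Ino80cKO 5. The sum of 9 early meiotic markers was 2635 to 4264 CPM against 2168 to 2730 CPM, and 7 of 9 were called lower (4 under library totals). In such bulk RNA, fewer cells of a type and less RNA per cell cannot be told apart.

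The cholesterol genes changed little and in both directions. Of the 28, 6 were higher in Ino80cKO (Npc1, Dhcr7, Acly, Hsd17b7, Scap and Srebf1), 4 were lower (Insig2, Fdft1, Idi1 and Sqle) and 18 did not pass an adjusted p of 0.05 in the quasi-likelihood test of edgeR, with Benjamini-Hochberg adjustment across 15265 genes. Among all genes tested 45.9% were called, 18.3% higher and 27.6% lower. Of the members 35.7% were called, 21.4% higher and 14.3% lower. The total and the lower share were thus below the background, and the higher share was slightly above it. Called changes lay between -0.49 and 0.53 on the log2 scale, and the median over the 28 was 0.12 against 0.02 over all genes tested. Ino80WT and Ino80cKO libraries were fully apart for 5 members that were higher (Npc1, Dhcr7, Acly, Scap and Srebf1), against a background of 9.96%, and for 1 that was lower (Insig2), against 22.0%.

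**Figure D1:**
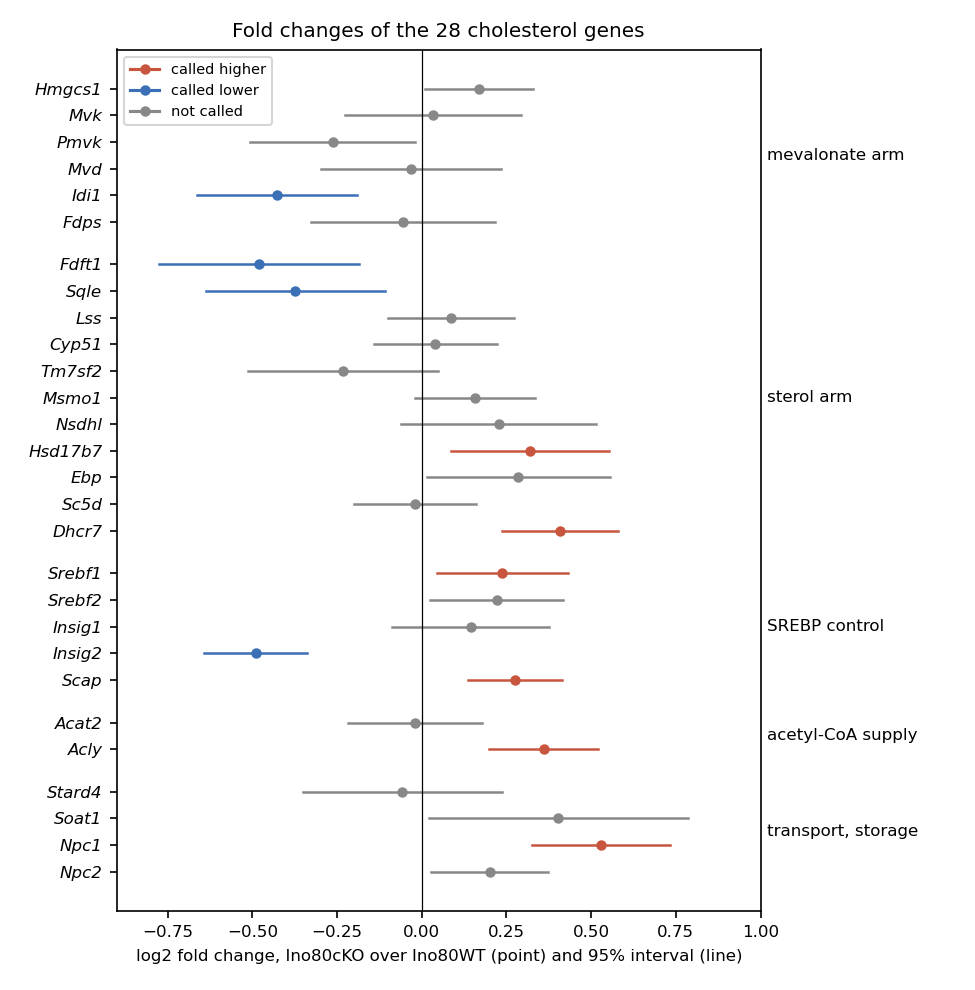
Log2 fold change of each of the 28 cholesterol genes (x axis, Ino80cKO over Ino80WT; point) with its 95% interval (line), by role from top to bottom; red and blue mark members called higher and lower. No member moved by more than 0.53 on the log2 scale, and called members of both directions occur within the sterol arm and the SREBP control genes.

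The direction of weak changes rested on how libraries were scaled. TMM factors, which set the scale used here, were above 1 in all 5 Ino80cKO libraries and above 1 in 1 Ino80WT library. Scaling by library totals moved the median of all tested genes from 0.02 to 0.19. With it 16 members were higher and 2 lower, beside 35.9% and 19.2% of all genes. With DESeq2 size factors 10 were higher and 4 lower (22.2% and 25.6% of all genes), and DESeq2's own test gave 11 and 4 (20.8% and 24.0%). In these settings the share of members called was not below that of all genes. In all 22 alternative settings 6 calls were kept, with Npc1, Dhcr7, Acly and Scap higher, and Insig2 and Fdft1 lower.

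Levels between genes were compared as CPM per kilobase of exon, with the exons of all annotated transcripts of a gene merged. Merged lengths include exons of transcripts that may be absent here, so the order of genes also depends on the annotation. In Ino80WT the highest were Acly (53.0 ± 4.55), Hmgcs1 (48.4 ± 3.89), Insig2 (32.2 ± 2.15) and Idi1 (29.5 ± 3.97), and the lowest was Tm7sf2 (1.81 ± 0.218). The mean of Hmgcs1 lay close to 1 SD below that of Acly, and that of Idi1 within 1 SD of its own spread below Insig2. Since both genes of a pair were read in the same libraries, these SDs do not decide its order. The order within libraries was not tested. Together the 28 genes took 0.163% to 0.194% of gene counts in the Ino80WT libraries and 0.209% to 0.228% in the Ino80cKO libraries, a share of library totals that is not corrected by TMM factors.

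In the mevalonate arm 1 of 6 enzymes changed. Idi1, the isomerase that balances both isoprenoid building blocks, stood at 97.4, 96.2, 124, 88.4 and 110.4 CPM in Ino80WT libraries 1 to 5 and at 80.0, 75.6, 61.7, 77.7 and 88.9 CPM in Ino80cKO libraries 1 to 5. Only Ino80cKO 5 reached into the Ino80WT range, just above Ino80WT 4. Idi1 was 1.34-fold lower (log2 -0.43 ± 0.11 SE, adjusted p = 0.0073), and under library totals the call was lost (log2 -0.25, adjusted p = 0.0519). Hmgcs1, the cytosolic synthase that feeds the pathway, was at 222 ± 17.9 and 250.1 ± 13.7 CPM (adjusted p = 0.0776), a fold whose 95% interval was 1.01 to 1.26, and it passed in 5 of 22 settings. The kinases Mvk and Pmvk, the decarboxylase Mvd and the farnesyl diphosphate synthase Fdps had log2 fold changes of 0.03, -0.26, -0.03 and -0.05. None of these passed. The interval for Fdps ran from a fold of 0.798 to 1.16 and that for Mvk from 0.855 to 1.23, so changes within these limits are not excluded. Fdps overlaps the protein-coding Gm43738 on the same strand, so its count is uncertain.

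Sequence before the start site of Hmgcs1 is shown because this gene alone among the members held the sterol-response-like motif searched. The RefSeq table (GRCm38.p6) gave 31 promoter windows, 250 bases before to 50 after a start, for 23 of the 28 members. Fdps, Fdft1, Sqle, Stard4 and Npc1 had no entry. The stretch lies at chr13:119690211-119690350 on the plus strand, 5′ to 3′, outside the transcribed part, and capitals mark TCACNCCAC (sterol-response-like), CCAAT and GGGCGG, each on either strand, with no overlap between them.
Hmgcs1: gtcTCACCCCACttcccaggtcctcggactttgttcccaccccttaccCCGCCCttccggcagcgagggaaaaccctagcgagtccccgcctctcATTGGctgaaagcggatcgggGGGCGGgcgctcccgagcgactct
TCACNCCAC occurred in 1 of the 31 member windows and in 1.24% of all 32851 windows. CCAAT occurred in 22 member windows (71.0%) and in 37.4% of all windows, and GGGCGG in 26 (83.9%) and in 35.7%. Among windows of protein-coding genes the shares were 38.2% for CCAAT and 46.2% for GGGCGG. The cAMP-response motif TGACGTCA was in none of the member windows and in 1.79% of all. These are matches of letters, not binding sites.

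Of the 11 enzymes from farnesyl diphosphate to cholesterol, Fdft1 and Sqle were lower, Dhcr7 and Hsd17b7 were higher, and 7 did not pass. Fdft1, the squalene synthase that commits farnesyl diphosphate to sterols, stood at 82.2, 79.8, 124, 74.3 and 84.6 CPM in Ino80WT and at 56.1, 67.2, 58.0, 61.4 and 76.0 CPM in Ino80cKO. Ino80WT 3 stood far above all other libraries, and the groups overlapped only at Ino80WT 4 and Ino80cKO 5. Fdft1 was 1.40-fold lower (log2 -0.48 ± 0.14, adjusted p = 0.0124). Its exons share 18.3% of their bases with Ctsb on the other strand, and how the counting treated strand is not known from the labels. Ctsb moved the other way, with a log2 fold change of 0.51 (adjusted p = 0.00312).

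Sqle, the squalene epoxidase, stood at 66.8, 67.3, 85.8, 67.3 and 73.5 CPM in Ino80WT and at 57.0, 58.7, 41.1, 53.1 and 68.7 CPM in Ino80cKO. Again Ino80WT 3 was the highest, Ino80cKO 3 was the lowest, and Ino80cKO 5 alone exceeded the lower Ino80WT libraries. The change was 1.30-fold lower (log2 -0.37 ± 0.12, adjusted p = 0.0251). This call was lost in 8 of 22 settings, among them those without Ino80WT 3, without Ino80WT 5, without Ino80cKO 3 and without Ino80cKO 4. Without Ino80WT 3 and Ino80cKO 3 together the log2 fold change was -0.19 (adjusted p = 0.116).

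Dhcr7, the reductase that completes cholesterol in one of the final routes, stood at 38.0, 41.6, 32.9, 39.8 and 33.5 CPM in Ino80WT and at 49.9, 48.0, 50.1, 47.0 and 51.5 CPM in Ino80cKO. The lowest Ino80cKO library lay above the highest Ino80WT library. Dhcr7 was 1.33-fold higher (log2 0.41 ± 0.08, adjusted p = 0.00142; chromosome 7, positions 143823145 to 143848410). Hsd17b7, a keto-reductase in the removal of sterol methyl groups, stood at 13.2, 16.7, 17.2, 19.3 and 15.97 CPM against 21.3, 21.1, 19.96, 17.9 and 22.7 CPM. Its groups overlapped at Ino80WT 4 and Ino80cKO 4. It was 1.25-fold higher (log2 0.32 ± 0.11, adjusted p = 0.0284), a call lost in 7 settings, among them those without Ino80WT 5 and without Ino80cKO 1, 2 or 5.

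The other 7 enzymes of the arm were not called. Lss, the lanosterol synthase, was at 36.2 ± 2.76 and 38.5 ± 3.79 CPM, and Cyp51 at 37.5 ± 2.36 and 38.5 ± 3.84 CPM, the Cyp51 fold having a 95% interval from 0.907 to 1.17. Tm7sf2, a sterol reductase that acts on the product of CYP51, was at 7.95 ± 0.959 and 6.76 ± 0.959 CPM (adjusted p = 0.154), and it overlaps Vps51 on the same strand, so its count is uncertain. Msmo1, the methylsterol monooxygenase, was at 40.7 ± 4.33 and 45.3 ± 2.38 CPM (adjusted p = 0.133), and the desaturase Sc5d at 28.6 ± 2.85 and 28.2 ± 1.27 CPM. The only X-linked members are Nsdhl, a dehydrogenase of sterol demethylation, and Ebp, a sterol isomerase. Their log2 fold changes were 0.23 ± 0.13 (adjusted p = 0.177) and 0.28 ± 0.12 (adjusted p = 0.0781), beside a median of 0.34 over 599 X-linked genes tested, of which 49.4% were called higher. Ebp passed in 7 of 22 settings, among them those without Ino80WT 1 and without Ino80cKO 5.

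**Figure D2:**
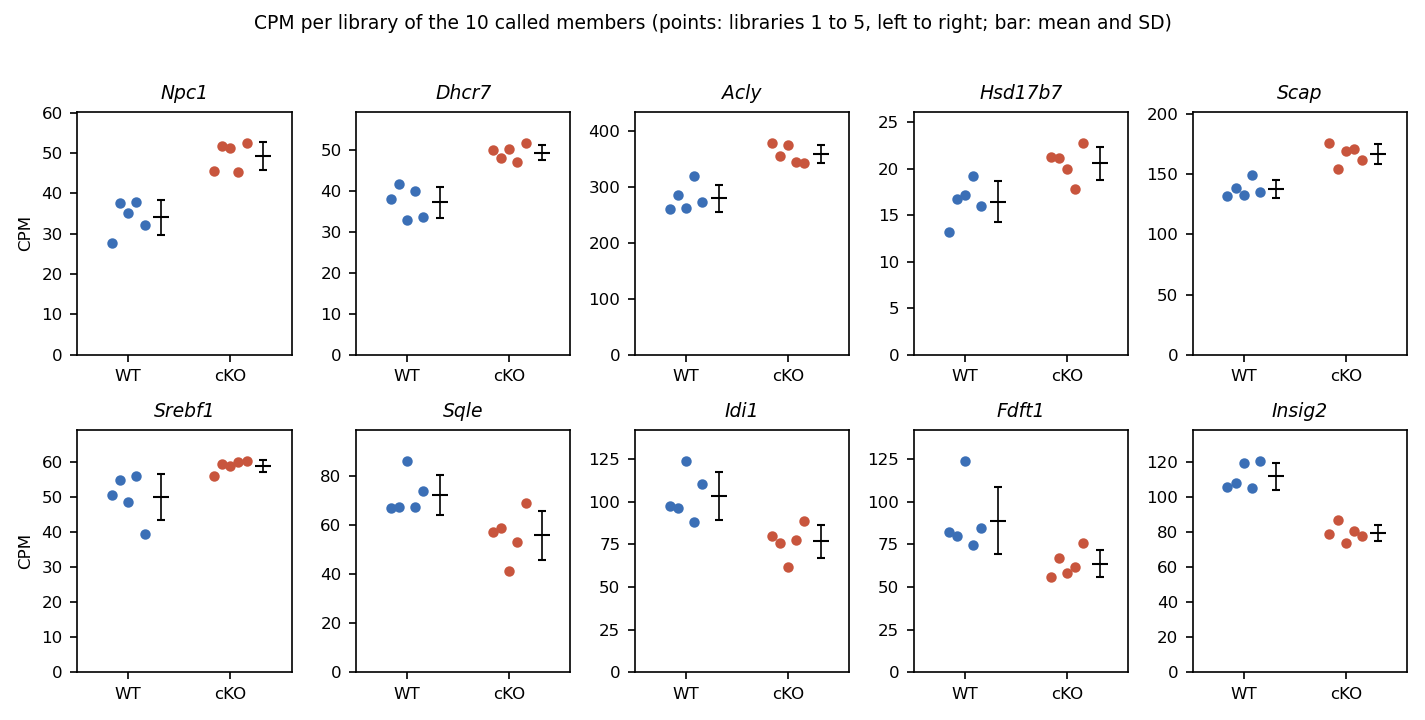
CPM (y axis, from 0) of the 10 called members in each library (points, Ino80WT in blue and Ino80cKO in red, libraries 1 to 5 from left to right) with mean and SD (black). The groups are apart for Npc1, Dhcr7, Acly, Scap, Srebf1 and Insig2, and they overlap for Hsd17b7, Sqle, Idi1 and Fdft1.

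The SREBP control genes held the smallest p-value of the set, that of Insig2. Insig2, the INSIG that is less dependent on SREBP for its own transcription, stood at 106, 108, 119, 105 and 121 CPM in Ino80WT and at 79.0, 86.8, 73.6, 80.8 and 77.8 CPM in Ino80cKO. Every Ino80cKO library was below every Ino80WT library. Insig2 was 1.41-fold lower (log2 -0.49 ± 0.07, adjusted p = 0.000193; chromosome 1, positions 121304353 to 121332589). Its paralog Insig1, a classical SREBP target, stood at 51.0, 47.0, 51.2, 49.7 and 42.0 CPM in Ino80WT and at 50.7, 54.3, 49.1, 44.5 and 67.8 CPM in Ino80cKO. Apart from the high Ino80cKO 5 and the low Ino80WT 5 these libraries lay close together, and Insig1 did not pass (log2 0.14 ± 0.11, adjusted p = 0.285).

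The ratio of Insig1 to Insig2 counts within a library does not depend on scaling between libraries. It was 0.481, 0.434, 0.429, 0.472 and 0.348 in Ino80WT and 0.642, 0.626, 0.667, 0.550 and 0.870 in Ino80cKO. All Ino80cKO libraries were above all Ino80WT libraries, with a geometric mean of 0.663 against 0.430, 1.54-fold higher. An exact two-sided permutation test over libraries gave p = 0.00794, the smallest this design allows, and 0.0317 adjusted over 4 ratios. Leaving out 1 library at a time gave log2 differences of 0.53 to 0.69. The 3 other ratios examined were Srebf1 to Srebf2 (0.478 and 0.487, exact permutation p = 0.746), Npc1 to Npc2 (0.377 and 0.476, p = 0.0397, adjusted 0.0794) and Cyp51 to Tm7sf2 (4.73 and 5.72, p = 0.103). The Npc1 to Npc2 difference had an exact permutation p of 0.0635 or more when any of 7 single libraries was left out, and without Ino80WT 1 its log2 value was 0.21 in place of 0.33.

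**Figure D3:**
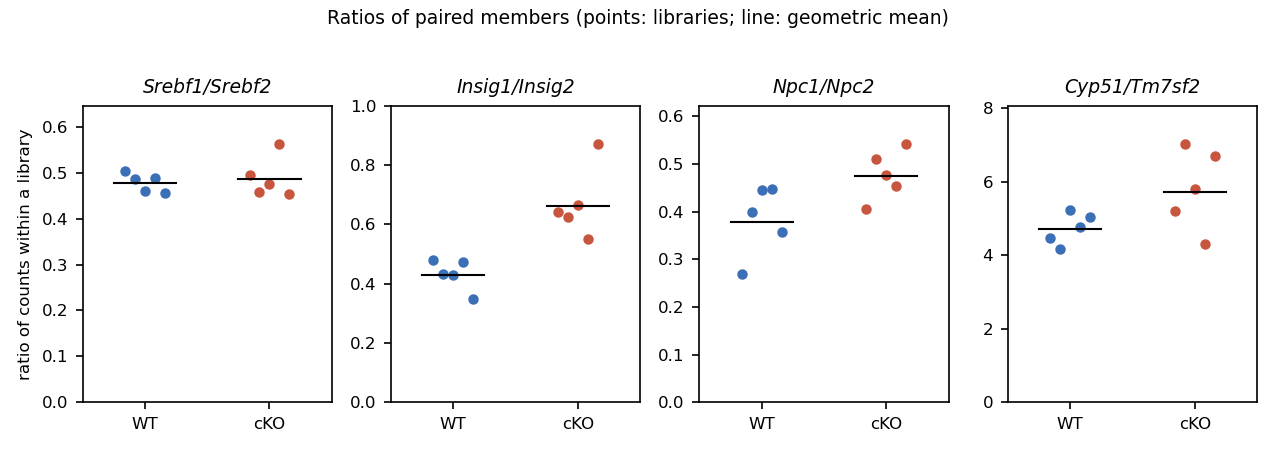
Ratio of counts of 2 members within each library (y axis, from 0; points) with the geometric mean of each group (line), for Ino80WT in blue and Ino80cKO in red. Insig1/Insig2 lies between 0.348 and 0.481 in Ino80WT and between 0.550 and 0.870 in Ino80cKO, while the other 3 ratios overlap between groups.

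Stretches before the start sites of both INSIG genes are shown because these paralogs differed in their response. Capitals mark the same motifs as above, the bases run 5′ to 3′ on the gene's strand, and Insig1 lies at chr5:28071223-28071362 on the plus strand and Insig2 at chr1:121332590-121332729 on the minus strand.
Insig1: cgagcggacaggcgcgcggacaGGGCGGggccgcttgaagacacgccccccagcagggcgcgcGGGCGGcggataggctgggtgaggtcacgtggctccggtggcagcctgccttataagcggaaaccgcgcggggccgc
Insig2: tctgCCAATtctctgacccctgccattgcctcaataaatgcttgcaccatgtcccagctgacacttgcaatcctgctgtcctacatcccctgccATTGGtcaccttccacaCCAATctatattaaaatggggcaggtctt
The Insig1 stretch holds 2 GGGCGG and no CCAAT, and the Insig2 stretch, at the most upstream of 3 start sites in the table, holds 3 CCAAT and no GGGCGG. This contrast depends on the length shown and on the start site. The whole Insig1 window holds 3 GGGCGG and 1 CCAAT, and the windows at the other 2 Insig2 starts hold 1 GGGCGG each and no CCAAT. Which of the 3 Insig2 starts was used in these cells was not analysed here.

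Scap, the SREBP escort, stood at 132, 139, 133, 149.7 and 135 CPM in Ino80WT and at 176, 155, 169, 171 and 162 CPM in Ino80cKO. The groups were apart, and Scap was 1.21-fold higher (log2 0.28 ± 0.06, adjusted p = 0.00434; chromosome 9, positions 110333288 to 110384950). Srebf1, whose product favours fatty acid genes, stood at 50.7, 55.0, 48.7, 55.9 and 39.6 CPM in Ino80WT and at 56.2, 59.6, 58.8, 59.9 and 60.2 CPM in Ino80cKO. The groups touched without overlapping, since Ino80WT 4 and Ino80cKO 1 were nearly equal. Srebf1 was 1.18-fold higher (log2 0.24 ± 0.09, adjusted p = 0.0449). That call was lost in 10 of 22 settings, including without Ino80WT 3 or 5 and without any one of the Ino80cKO libraries. Srebf2, whose product favours cholesterol genes, stood at 101, 113, 106, 114 and 87.0 CPM in Ino80WT and at 113, 130.4, 124, 107 and 133 CPM in Ino80cKO. Its groups overlapped and it did not pass (log2 0.22 ± 0.09, adjusted p = 0.0608), although it did in 7 settings.

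Of the genes that supply acetyl-CoA, Acly rose and Acat2 did not. Acly, the ATP-citrate lyase that makes cytosolic acetyl-CoA for sterols and fatty acids alike, stood at 259.9, 285, 262, 319 and 273 CPM in Ino80WT and at 377, 355, 375, 344 and 343 CPM in Ino80cKO. The groups were apart, and Acly was 1.28-fold higher (log2 0.36 ± 0.07, adjusted p = 0.00202; chromosome 11, positions 100476353 to 100528000). Acat2, the cytosolic acetoacetyl-CoA thiolase, was at 20.4 ± 2.10 and 20.1 ± 1.29 CPM, a fold between 0.860 and 1.13 by its 95% interval. It has a near copy, Acat3, in the mouse genome, so its count is uncertain.

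Among carriers, Npc1 had the largest change of the 28 genes. Npc1, the lysosomal membrane protein through which cholesterol from internalized lipoproteins leaves the lysosome, stood at 27.6, 37.6, 35.0, 37.9 and 32.2 CPM in Ino80WT and at 45.5, 51.8, 51.2, 45.3 and 52.4 CPM in Ino80cKO. Every Ino80cKO library was above every Ino80WT library. Npc1 was 1.44-fold higher (log2 0.53 ± 0.09, adjusted p = 0.000805), with a 95% interval from 1.25 to 1.66. Its exons share 4.52% of their bases with Rmc1 on the other strand, which had a log2 fold change of 0.05 (adjusted p = 0.55). Npc2, its soluble partner in the lysosome, was at 90.0 ± 9.20 and 103 ± 6.10 CPM (log2 0.20 ± 0.08, adjusted p = 0.056) and passed in 9 of 22 settings. Soat1, which esterifies cholesterol for storage, was at 157 ± 32.01 and 207 ± 47.0 CPM (log2 0.40 ± 0.18, adjusted p = 0.0769). Its libraries spanned 116 to 182 CPM (Ino80WT) and 138 to 258 CPM (Ino80cKO), the latter the largest SD relative to its mean among the 28. It passed in 4 of 22 settings, which were library totals, DESeq2, without Ino80cKO 5 and without both Ino80WT 3 and Ino80cKO 5. Stard4, a cytosolic sterol carrier, was at 19.98 ± 3.11 and 19.2 ± 3.14 CPM. The macrophage and leukocyte, Sertoli and Leydig sums were also higher in Ino80cKO, and their part in the values of Npc1, Acly and the other higher members was not tested.

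Single libraries stood apart in a way that divided the members. Ino80WT 3 was the highest Ino80WT library for 8 members (Mvk, Idi1, Fdps, Fdft1, Sqle, Lss, Insig1 and Stard4), and Ino80cKO 5 was the highest Ino80cKO library for the same 8. Ino80WT 3 was the lowest for 9 others, and 6 of these (Hmgcs1, Nsdhl, Ebp, Acat2, Soat1 and Npc2) were also lowest in Ino80cKO 5. Ino80cKO 5 was the highest of its group for 17 of 28 members in all. Ino80WT 3 and Ino80cKO 5 also held the lowest sums of Sertoli, Leydig, peritubular and endothelial markers in their groups and the highest sums of pachytene markers. For the Sertoli markers these sums were 3196 CPM in Ino80WT 3 and 4772 CPM in Ino80cKO 5. Ino80cKO 3, with the lowest pachytene sum (1643 CPM), was the lowest of its group for 9 members. These groupings were seen in the data and carry no test, and the part of cell makeup in them was not tested. With both Ino80WT 3 and Ino80cKO 5 left out, 6 members were higher and 4 lower, beside 17.0% and 25.5% of all genes. In that fit 8 of the 10 calls were kept.

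**Figure D4:**
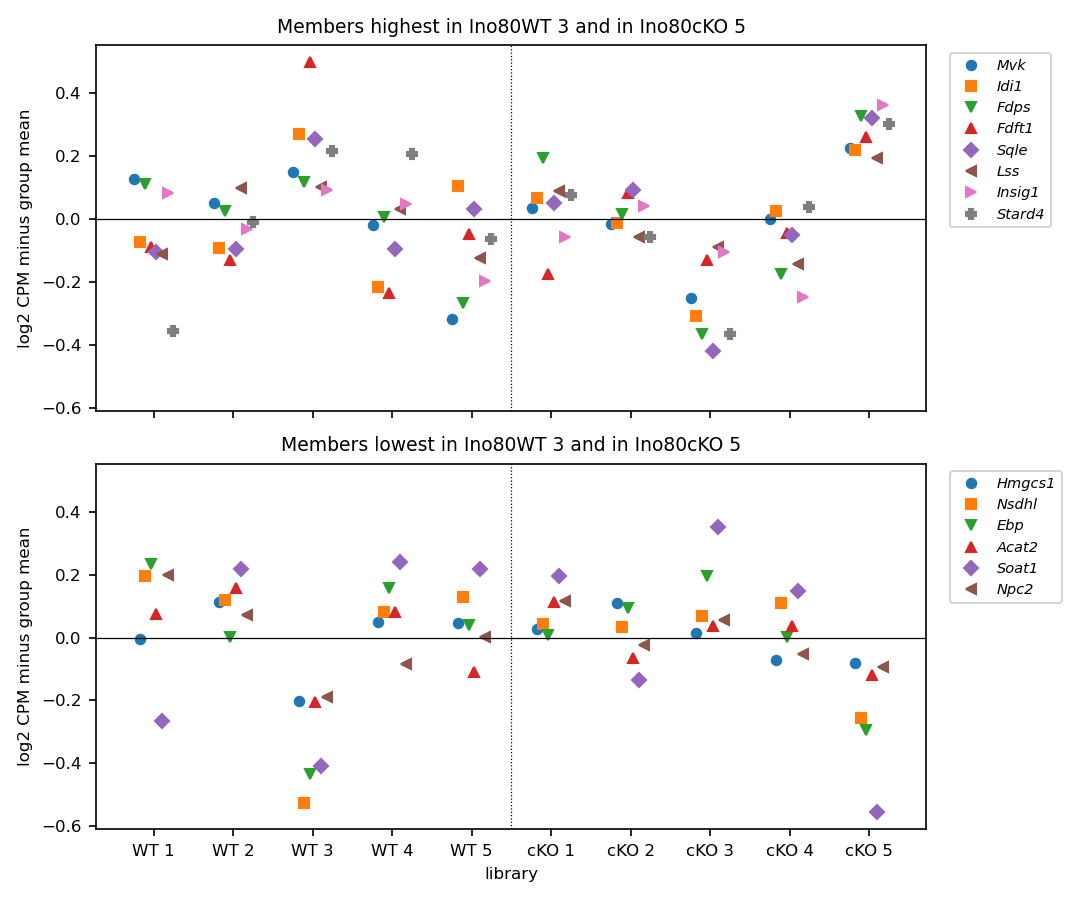
Log2 CPM minus the mean of its group (y axis) in each library (x axis) for the 8 members highest in both Ino80WT 3 and Ino80cKO 5 (top) and the 6 members lowest in both (bottom). By this choice of members the marks at these libraries lie above 0 in the top panel and below 0 in the bottom panel, and in the top panel 5 of the 8 members are lowest in Ino80cKO 3.

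Other genes around the pathway were taken from 5 lists with 77 genes, of which 76 were tested. Of these 26 (34.2%) were higher and 13 (17.1%) lower (44 and 9 under library totals), with a median of 0.17. Over all genes tested 18.3% were called higher and 27.6% lower, and under library totals 35.9% and 19.2%. These shares are the background for each list below. Fatty acid synthesis, which shares acetyl-CoA and SREBP control with the sterol pathway, had 8 of 13 genes higher and 1 lower. Its median was 0.34 against 0.02 over all genes, with a background of 18.3% called higher. None of the 13 had every Ino80cKO library above every Ino80WT library, beside 9.96% of all genes. Scd2, a stearoyl-CoA desaturase, rose from 616 ± 84.4 to 797 ± 78.1 CPM (log2 0.37 ± 0.11, adjusted p = 0.0125), Acacb, an acetyl-CoA carboxylase, 1.42-fold to 25.5 ± 4.65 CPM, and the desaturase Fads1 1.25-fold to 106 ± 7.84 CPM. The lower gene, Acss2, named after its values were seen, had a log2 fold change of -0.21 (adjusted p = 0.032), and no gene of the list was lower without Ino80WT 3 or 5 or without Ino80cKO 2, 3 or 5. Under library totals 10 were higher and none lower, and without Ino80WT 3 and Ino80cKO 3 5 were higher. The list's summed level was lowest in Ino80WT 3 (2326 CPM) and, within its group, in Ino80cKO 5 (2695 CPM), the libraries with the lowest Sertoli sums, and whether these sums bear on it was not tested.

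The machinery that processes SREBP or senses sterols was split, with 3 of 12 higher and 5 lower (4 and 3 under library totals). Tmem97, a sterol-responsive membrane protein, was 2.13-fold lower, at 255 ± 69.2 and 119.5 ± 22.9 CPM (log2 change -1.09 ± 0.18, adjusted p = 0.000481). The ubiquitin ligase Rnf139 and the membrane protein Erlin1, both linked to sterol-controlled protein turnover, fell 1.41-fold and 1.42-fold. The list's median was -0.13 and turned to 0.04 under library totals. Both SREBP proteases, singled out after their values were seen, were higher: Mbtps1 1.28-fold and the X-linked Mbtps2 1.41-fold (adjusted p = 0.00379 and 0.00491).

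Isoprenoid use branching from farnesyl diphosphate had 3 of 16 genes higher and 2 lower (median 0.04, and 7 higher and 2 lower under library totals). Its 18.8% higher is close to the 18.3% of all genes, and its 12.5% lower is below their 27.6%. The prenyltransferase subunit Fnta fell from 131 ± 13.4 to 82.5 ± 6.16 CPM (log2 -0.67 ± 0.08, adjusted p = 0.000101), Icmt, which methylates prenylated proteins, fell 1.61-fold from 219 ± 31.8 CPM, and the protease Zmpste24 rose 1.28-fold. Sterol transfer and ester turnover had 7 of 22 (31.8%) higher and 3 (13.6%) lower (median 0.19, with 14 and 3 under library totals). Without Ino80WT 1 the count of higher genes was 11, and without both Ino80WT 3 and Ino80cKO 3 it was 4. Its largest changes were falls. Gramd1c, a carrier of plasma membrane sterol, fell from 91.9 ± 30.4 to 32.6 ± 7.78 CPM (2.82-fold lower), and Stard6, a germ-cell relative of Stard4, 2.56-fold from 93.9 ± 25.9 CPM to 36.7 ± 6.96 (log2 change -1.36 ± 0.19, adjusted p = 0.000171). Osbpl1a rose 1.21-fold from 64.6 ± 2.75 CPM. Pachytene markers, all 16 lower, moved with these falls, and their part was not tested.

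Efflux and oxysterol genes had 5 of 13 tested higher and 2 lower (median 0.22, and 9 and 1 under library totals). These are 38.5% and 15.4%, beside 18.3% and 27.6% of all genes. The count of lower genes was 1 without Ino80WT 5, Ino80cKO 2 or Ino80cKO 3. The transporter Abcg4 rose from 0.832 ± 0.224 to 1.91 ± 0.315 CPM (log2 1.19 ± 0.22, adjusted p = 0.000932) and Cyp7b1, an oxysterol hydroxylase, from 0.758 ± 0.153 to 1.62 ± 0.351 CPM, while Cyp46a1, a cholesterol hydroxylase, fell 1.58-fold to 7.54 ± 0.621 CPM.

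**Figure D5:**
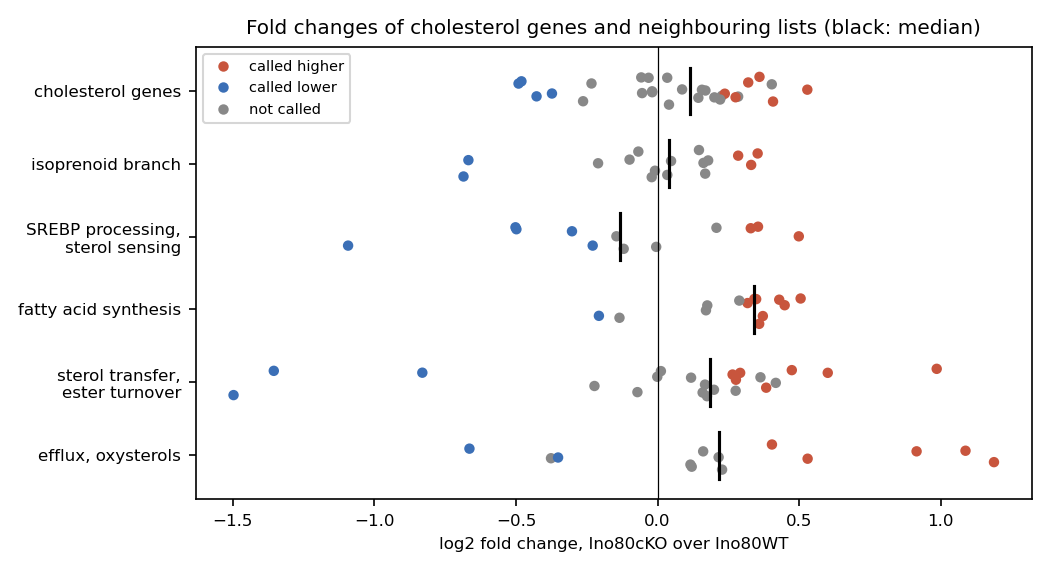
Log2 fold change (x axis) of each gene of the cholesterol set and of 5 neighbouring lists (rows; points, spread vertically at random), coloured by call, with each list's median as a black bar. The medians are 0.12 for the cholesterol genes and 0.34 for fatty acid synthesis, and the lowest points are Gramd1c and Stard6.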

How the data were processed

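For each library the authors deposited raw counts by gene symbol, as whole numbers. Build mm10 and the tools HTSeq, TopHat2 and DESeq2 are listed, per the submitters' processing notes, with neither version nor role. Annotation and counting strand: not given in the sources used here. The 5 rows that name no gene, 35.5% to 44.0% of reads, stayed out of library sizes and tests. They include reads aligned to more than 1 place.

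Counts were analysed with edgeR 4.0.16 in R 4.3.3: filterByExpr (minimum count 10, minimum total 15), TMM factors, and a robust quasi-likelihood fit with genotype as its only term, called at a Benjamini-Hochberg adjusted p below 0.05 over 15265 genes. SE is the log2 fold change divided by the square root of F. CPM uses TMM library sizes. On simulated counts for this comparison (15180 genes, 100 changed by each size), 25% of changes of 0.5 and 1% of changes of 0.25 on the log2 scale were called. That share is for few changed genes, and with many the threshold is looser. Exon lengths and positions are from GENCODE M21 (GRCm38, the same assembly as mm10), promoter sequences and X linkage from RefSeq tables of GRCm38.p6.

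The members, lists, tests and alternatives were chosen with earlier results of these data known. Of 172 listed other genes 171 were found. Values in every library were to be printed for called members with an absolute log2 change of at least 0.5 and for Srebf1, Srebf2, Insig1 and Insig2, and up to 3 genes per neighbouring list by smallest adjusted p were to be named. The other called members' library values and the printed promoters were added after the values were seen. Alternatives were other scalings, filters, dispersions, DESeq2 1.42.0, limma 3.58.1 (voom), a replicate block and leaving out libraries. No pair of libraries was a duplicate (lowest chi-square per degree of freedom 9.40).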

Additional observations from a re-analysis of the deposited data

Results flagged for a closer look

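Among 56 groups of 5 libraries (28 members in each genotype), 4 held a library whose distance from the rest exceeded Dixon's 95% critical value of 0.710, and chance flags about 1 in 20 such groups. Fdft1 was at 124 CPM in Ino80WT 3, with the other Ino80WT libraries at 74.3 to 84.6 CPM. Nsdhl was at 9.77 CPM in Ino80WT 3, below 14.9 to 16.1 CPM in the others, and at 13.9 CPM in Ino80cKO 5, below 17.0 to 17.9 CPM. Mvd was at 11.1 CPM in Ino80WT 5, below 15.4 to 17.0 CPM. Of these genes only Fdft1 was called, and it stayed called without Ino80WT 3.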

How the results depend on the processing

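Npc1, Dhcr7, Acly, Scap, Insig2 and Fdft1 kept their call in all 22 alternatives, Idi1 in 21. Members called higher were 16 and lower 2 under library totals, where 35.9% of all genes were called higher and 19.2% lower. With DESeq2 size factors 10 members were higher and with DESeq2 11, beside 22.2% and 20.8% of all genes. Neighbouring genes called higher were 44 of 76 under library totals. The members' median of 0.12 was 0.29 under library totals, 0.15 with DESeq2 size factors, 0.18 without both Ino80WT 1 and 2 and 0.063 without both Ino80WT 3 and Ino80cKO 5 (added after the data were seen). The neighbouring genes' median of 0.17 was 0.35 under library totals and 0.24 without both Ino80WT 1 and 2. Leaving out 1 library gave 4 to 9 members higher (9 without Ino80WT 1, 4 without Ino80WT 5, Ino80cKO 1 or Ino80cKO 2), 3 to 4 lower, medians of 0.039 (without Ino80cKO 5) to 0.16, and Ino80 log2 changes of -0.031 to 0.074. Uncalled members near 0 changed sign. Mvd was 0.14 under library totals, 0.00018 with DESeq2 size factors, 0.079 without Ino80WT 1 and 2 and 0.063 without Ino80WT 3 and Ino80cKO 3. Fdps was 0.12, 0.041 and 0.079 under library totals, without Ino80WT 1 and 2, and without Ino80WT 3 and Ino80cKO 3, and Stard4 0.12 under library totals and 0.10 without Ino80WT 3 and Ino80cKO 3. Sc5d was 0.16 and Acat2 0.15 under library totals, 0.013 and 0.011 with DESeq2 size factors, 0.0074 and 0.0034 without Rn45s, 0.012 and 0.010 in DESeq2, 0.0050 and 0.0043 without a filter, 0.0067 and 0.0062 with a CPM filter, and 0.056 and 0.11 without Ino80WT 1 and 2. Leaving out single libraries, Mvk ran from -0.037 to 0.11, Mvd from -0.13 to 0.033, Fdps from -0.14 to 0.051, Sc5d from -0.069 to 0.029, Acat2 from -0.070 to 0.021, Stard4 from -0.14 to 0.046 and the Srebf1 to Srebf2 ratio from -0.027 to 0.051 (log2). The causes were not tested.

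With a replicate block 4 members were higher and 3 lower, beside 12.6% and 23.4% of all genes. Sqle, Hsd17b7 and Srebf1 lost their calls. Same-numbered libraries did not deviate together (correlations -0.47 to 0.20 over 5 pairs), and 1 of 5 Ino80WT libraries correlated best with its own number. This check cannot exclude that same-numbered libraries shared a litter, date or batch, which the labels do not give.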
